A study of Rattus norvegicus with 4 samples.

Results

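Endothelial cells, the cells that line blood and lymphatic vessels, were examined in rat skin wounds sampled at day 4, a day the labels count from no stated event. A barcode was counted as endothelial when it held at least 4 UMIs (unique molecular identifiers, each marking 1 captured transcript) from at least 3 genes of the set Pecam1, Cdh5, Kdr, Egfl7, Emcn and Tie1, with Krt5 and Krt14 under 0.5% and Col1a1, Col1a2, Col3a1 and Dcn under 1% of its UMIs. Pecam1 and Col1a2 were not used here, because neither symbol was among the 23999 listed genes, so 5 endothelial genes carried the gate. Cells were thus chosen by their measured UMIs of these genes. The gate selected 278 of 32801 barcodes with at least 1000 UMIs, at least 250 genes and at most 20% mitochondrial UMIs. Each of the 4 libraries was made by droplet capture of single cells (10x Genomics) from digested wound skin. The injected libraries, 2 in number, came from wounds that had received purified migrasomes, which are large vesicles that form on the retraction fibres of crawling cells. The uninjected libraries, also 2, came from wounds that received no injection at all, so the effect of the migrasomes and that of an injection as such cannot be told apart. All libraries share the rat wound, the tissue and the day, while the sources used here give no strain, age, sex, dose or source cell of the migrasomes. The labels do not say whether the replicates came from separate animals, so a p-value speaks only of variation among these 4 libraries, part or all of which may be technical.

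In a healing wound, endothelial cells sprout from existing vessels under vascular endothelial growth factor. Leading tip cells turn on genes such as Esm1, Apln and Angpt2, stalk cells divide behind them, and Notch signalling sets the balance between both states. Venules display selectins and other adhesion molecules that let leukocytes leave the blood, and endothelial cells also release chemokines. Lymphatic vessels are lined by a separate lineage that depends on the transcription factor Prox1 and draws in dendritic cells with Ccl21. Sprouting endothelial cells obtain much of their energy from glycolysis.

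Whole libraries held 75823418 to 105605297 UMIs, and the median kept cell held 4498.5 to 8750 UMIs. Endothelial cells were deeper than the median kept cell, with medians of 21238 and 15246 UMIs in injected 1 and 2, against 10739.5 and 11577.5 UMIs in uninjected 1 and 2. They contributed 3644477 and 463548 UMIs in the injected libraries, against 552665 and 726505 UMIs in the uninjected libraries, so injected 1 is by far the best sampled and injected 2 the least. Between 13 and 29 kept barcodes were shared by any pair of libraries, and 0 endothelial barcodes were.

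The values that chose the cells are given as a description. Cdh5, the adhesion molecule of endothelial junctions, stood at 882 and 655 CPM in endothelial cells of the injected libraries, against 627 and 576 CPM in those of the uninjected libraries. The level of a gene is its count relative to the total UMIs (CPM) of a library's summed endothelial cells, with edgeR's trimmed-mean (TMM) scaling. All other kept cells held 1.76, 0.455, 0.449 and 0.514 CPM of Cdh5 in injected 1 and 2 and uninjected 1 and 2. Kdr, the main receptor for vascular endothelial growth factor, stood at 193 and 216 CPM in injected and at 215 and 174 CPM in uninjected endothelial cells. Just inside the gate lay 9 cells with 4 UMIs of its endothelial genes, and just outside lay 85 cells with 3 UMIs. A further 58 cells had enough UMIs from 2 genes only, and 7 were kept out by keratin or collagen. The median endothelial cell held 39 and 23 such UMIs in injected 1 and 2, against 15.5 and 19 in uninjected 1 and 2.

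Endothelial genes outside the gate bore out the label. Of 32 such genes, 31 had enough UMIs to be tested between groups, and Robo4, at 3 UMIs over the 4 libraries, was the exception. Plvap, a component of the fenestral diaphragm of leaky vessels, stood at 1193 and 2079 CPM in injected and at 1608 and 1376 CPM in uninjected endothelial cells, with at most 7.83 CPM in the other kept cells of any library. Flt1, a decoy receptor for vascular endothelial growth factor, stood at 1242 and 1111 CPM in injected and at 1547 and 1274 CPM in uninjected endothelial cells, with at most 29.2 CPM in the other kept cells. Plvap overlapped between groups, and Flt1 was slightly lower in both injected libraries, with a log2 difference of -0.26 ± 0.33 (SE; edgeR adjusted p = 0.777).

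Endothelial cells made up 1.59% of 9850 kept cells in injected 1 (95% Wilson interval 1.36 to 1.86) and 0.472% of 6143 in injected 2 (0.329 to 0.677). They made up 0.563% of 7818 kept cells in uninjected 1 (0.420 to 0.755) and 0.534% of 8990 in uninjected 2 (0.403 to 0.707). The intervals cover counting error only. Injected 1 thus stood well above each of the other libraries, whose intervals overlapped. The means were 1.03 ± 0.793% in injected and 0.548 ± 0.0204% in uninjected wounds (SD, n = 2 each), a difference of 0.485 percentage points (exact two-sided permutation test, p = 1, where 2 libraries against 2 allow no p under 0.333). Without injected 1 the difference was -0.0763 percentage points. A gate that counts UMIs also admits deeper cells more readily: applied after thinning every cell to 1000 UMIs, it left only 13 and 2 cells in the injected and 4 and 5 in the uninjected libraries.

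**Figure D1:**
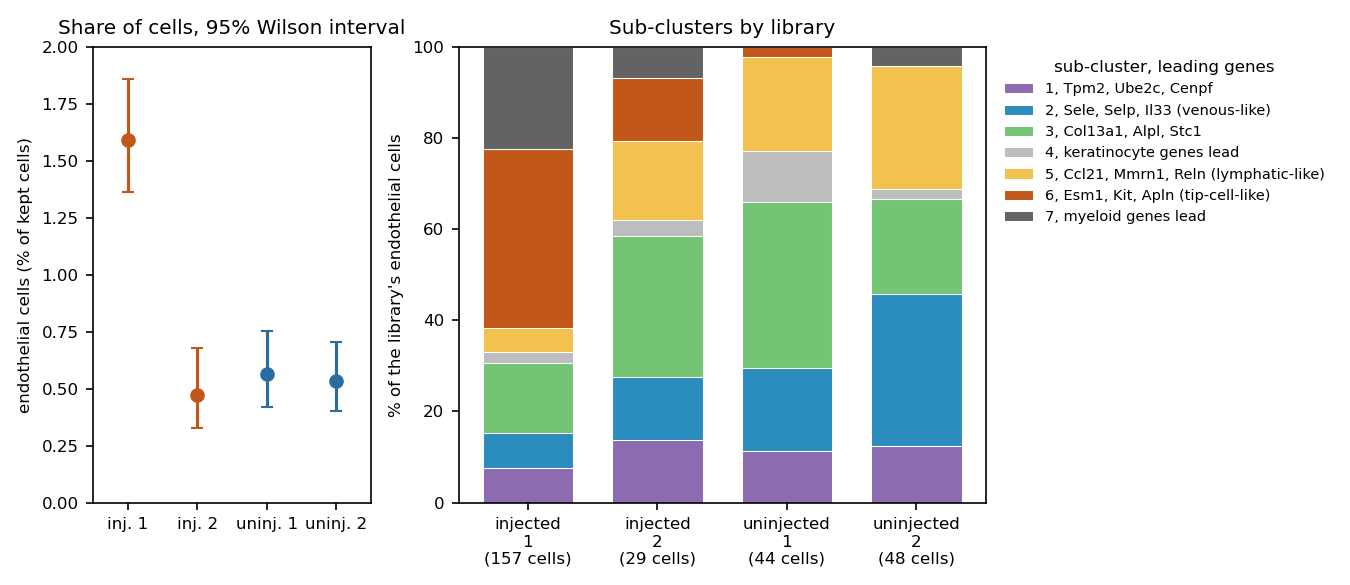
Left, endothelial cells as a percentage of kept cells in each library, with 95% Wilson intervals (injected orange, uninjected blue). Right, the make-up of each library's endothelial cells by sub-cluster, in percent of that library's endothelial cells, with injected 1 holding most of sub-clusters 6 and 7.

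Clustering of the 278 cells gave 7 sub-clusters, which are described without a test because the same genes formed them. A venous-like sub-cluster was led by Sele and Selp, the selectins that slow leukocytes, and by Il33. It held 12 and 4 cells in injected 1 and 2, against 8 and 16 cells in uninjected 1 and 2. These were 7.64% and 13.8% of endothelial cells in injected 1 and 2, against 18.2% and 33.3% in uninjected 1 and 2. The lymphatic-like sub-cluster, led by Ccl21, Mmrn1, Reln, Pdpn and Lyve1, held 8 and 5 cells in the injected and 9 and 13 cells in the uninjected libraries. These were 5.10% and 17.2% of endothelial cells in injected 1 and 2, against 20.5% and 27.1% in uninjected 1 and 2. Of its 35 cells, 34 were among the highest Scrublet doublet scores, a measure of likeness to simulated mixtures of cells.

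A tip-cell-like sub-cluster was led by Esm1 and also held Apln, Kcne3 and Kit among its 10 leading genes. It held 62 cells in injected 1 and 4 in injected 2, against 1 in uninjected 1 and 0 in uninjected 2. These were 39.5% and 13.8% of endothelial cells in injected 1 and 2, against 2.27% and 0% in uninjected 1 and 2. Most of its cells came from injected 1, and whether it is a feature of that library or a cell state was not tested. A sub-cluster with the cell division genes Ube2c, Cenpf and Cdk1 among its 10 leading genes, beside the contractile and stromal genes Tpm2 and Col3a1, held 12 and 4 cells in the injected and 5 and 6 cells in the uninjected libraries and was left unnamed. Another unnamed sub-cluster, led by Col13a1, Alpl and Stc1, held 24 and 9 cells in the injected and 16 and 10 cells in the uninjected libraries. The remaining sub-clusters carried genes of other cell classes. Keratinocyte genes such as Krt15 and Cdh1 led 11 cells, spread as 4 and 1 in the injected and 5 and 1 in the uninjected libraries. Myeloid genes such as RT1-Da, Lyz2 and Il1b led 39 cells, of which 35 were in injected 1 and 2 in injected 2, against 0 in uninjected 1 and 2 in uninjected 2. RT1-Da, Lyz2 and Il1b were found in 30.8%, 41.0% and 43.6% of these 39 cells. The same 39 cells held Esm1 at 670 and Apln at 307 unscaled CPM, against 826 and 319 in the tip-cell-like sub-cluster. They were thus tip-cell-like in these genes too. Neither group of cells was given a name.

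Summed over each library's endothelial cells, 7012 genes had enough UMIs for a test, and 1 of them, 0.0143%, passed an adjusted p of 0.05 (edgeR quasi-likelihood test, Benjamini-Hochberg). That gene was LOC299282, a locus without a gene name in the sources used here, which is named after its values were seen. It held 5.75 and 4.32 CPM in the injected libraries, against 325 and 278 CPM in the uninjected libraries, and the groups were far apart. It fell by 5.76 ± 0.38 on the log2 scale (SE, n = 2 libraries each; edgeR adjusted p = 0.00793). In the venous-like sub-cluster, where it was among the leading genes, it stood at 39.6 and 29.6 unscaled CPM in injected 1 and 2, against 1217 and 521 in uninjected 1 and 2. In fibroblasts of the same libraries it stood at 117 and 64.2 CPM in injected and at 627 and 188 CPM in uninjected wounds.

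An unadjusted p under 0.05 was reached by 755 genes, 10.8% of those tested, with 330 (4.71%) higher and 425 (6.06%) lower in injected wounds. Both injected libraries lay above both uninjected libraries for 24.6% of genes and below them for 20.3%. The log2 difference was above 0 for 3509 genes and below 0 for 3503. DESeq2 called 33 genes, 7 higher and 26 lower. The count of 1 rested on all libraries: it was 0 without injected 1, 206 without injected 2, 21 without uninjected 1 and 590 without uninjected 2. LOC299282 itself lost its call without injected 1 (edgeR adjusted p = 0.186). Values for other genes below are therefore a description of these libraries, and counts in a gene list are to be read against the shares of all genes just given.

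**Figure D2:**
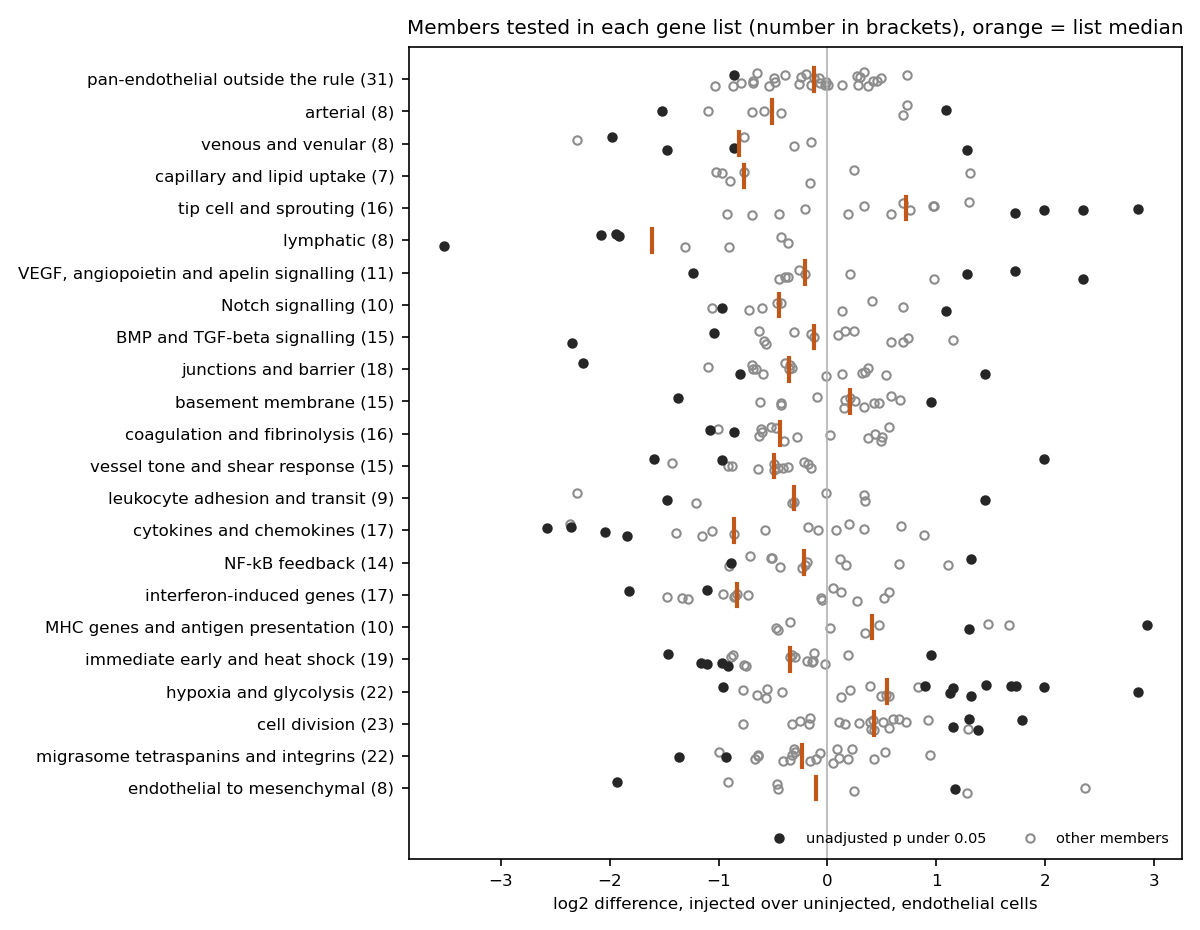
Each circle is a gene of the list named on the left, placed by its log2 difference between injected and uninjected endothelial cells; filled circles have an unadjusted p under 0.05 and orange bars are list medians. The lymphatic members all lie below 0 and most glycolytic and tip-cell members above it.

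Genes of sprouting tip cells had more transcripts in the injected libraries, chiefly in injected 1. Of 16 tip-cell genes tested, 12 were higher and 4 lower, with a median log2 difference of 0.72 against 0.00 over all genes tested. Both injected libraries were above both uninjected libraries for 8 of them and below for 1, and 4 had an unadjusted p under 0.05. Esm1, a secreted proteoglycan of tip cells, held 610 and 110 CPM in injected 1 and 2, against 31.2 and 68.1 CPM in uninjected 1 and 2. Its log2 difference was 2.85 ± 0.79 (SE; edgeR adjusted p = 0.394), and it was 1.13 without injected 1. Apln, which encodes the apelin peptide, held 299 and 60.5 CPM in injected and 33.3 and 39.5 CPM in uninjected libraries, a log2 difference of 2.35 ± 0.70 (edgeR adjusted p = 0.420) that was 0.73 without injected 1. For both genes injected 1 was several-fold above injected 2, while the groups did not overlap. Angpt2, a ligand of the Tie2 receptor that loosens vessel walls, held 361 and 147 CPM in injected and 49.98 and 104 CPM in uninjected libraries. Adm, a vasodilating peptide, held 1318 and 547 CPM in injected and 260 and 211 CPM in uninjected libraries, a log2 difference of 1.99 ± 0.47 (edgeR adjusted p = 0.348). Without injected 1 it was 1.23 for Adm and 0.92 for Angpt2. The sub-cluster led by myeloid genes, which also held Esm1 and Apln, is left out here with the tip-cell-like one. Esm1 and Apln were among the leading genes of the tip-cell-like sub-cluster, so leaving it out lowers them by construction. An overlap of these genes in the remaining cells therefore decides nothing. Outside the tip-cell-like sub-cluster and those led by keratinocyte or myeloid genes, Adm stood at 539 and 521 unscaled CPM in injected and at 184 and 223 in uninjected libraries. In those same cells Esm1 stood at 31.7 and 66.5 in injected and at 8.95 and 74.8 in uninjected libraries, and the groups overlapped. Apln there stood at 210 and 11.1 in injected and at 24.6 and 43.4 in uninjected libraries, and Angpt2 at 135 and 105 in injected and at 26.9 and 112 in uninjected libraries, so that both overlapped too.

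Among ligands and receptors of the vascular growth factor, angiopoietin and apelin pathways, 11 genes were tested, with 5 higher, 6 lower and a median of -0.20. The receptor of apelin, Aplnr, held 94.8 and 34.6 CPM in injected and 31.2 and 25.9 CPM in uninjected libraries. Vegfc, the growth factor of lymphatic vessels, held 21.9 and 25.9 CPM in injected and 70.8 and 40.9 CPM in uninjected libraries, with the groups apart in the other direction. The Notch list held 10 tested genes, 4 higher and 6 lower. Its receptors went opposite ways: Notch4 held 84.9 and 51.9 CPM in injected against 35.4 and 31.3 CPM in uninjected libraries, while Notch1 held 44.9 and 54.0 CPM in injected against 123 and 69.5 CPM in uninjected libraries. Bmp4, a secreted morphogen, held 12.0 and 13.0 CPM in injected and 41.7 and 81.8 CPM in uninjected libraries, a log2 difference of -2.34 ± 0.45 (edgeR adjusted p = 0.299).

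Glycolytic and oxygen-responsive genes were higher in both injected libraries more evenly. Of 22 genes of this list, 16 were higher and 6 lower, with a median log2 difference of 0.55 against 0.00 over all genes. Both injected libraries exceeded both uninjected libraries for 13 genes and were below them for 5, and an unadjusted p under 0.05 was reached by 9 higher genes and 1 lower gene. Pgk1, a kinase that makes ATP in glycolysis, held 2016 and 1372 CPM in injected and 427 and 804 CPM in uninjected libraries, a log2 difference of 1.46 ± 0.43 (SE; edgeR adjusted p = 0.420). Ldha, which turns pyruvate into lactate, held 1863 and 1740 CPM in injected and 535 and 1078 CPM in uninjected libraries. Slc16a3, a lactate exporter, held 30.9 and 28.1 CPM in injected and 2.08 and 5.45 CPM in uninjected libraries, the last values resting on 1 and 4 UMIs. Bnip3, a mitophagy receptor, held 249 and 201 CPM in injected and 43.7 and 94.0 CPM in uninjected libraries, a log2 difference of 1.69 ± 0.40 (edgeR adjusted p = 0.348). In all these genes the groups did not overlap, and uninjected 1 was the lowest library. Hif1a, the oxygen-regulated transcription factor subunit, lay the other way, at 533 and 707 CPM in injected and 1089 and 854 CPM in uninjected libraries. Outside the tip-cell-like sub-cluster and those led by other classes, Pgk1 stood at 1479 and 1361 unscaled CPM in injected and at 425 and 845 in uninjected libraries. Bnip3 there stood at 255 and 227 in injected and at 47.0 and 102 in uninjected libraries, so both differences were also present in the remaining cells summed. Both genes also kept the groups apart in the lymphatic-like sub-cluster and in the one led by Col13a1. In the venous-like one both overlapped, with Pgk1 at 1010 and 873 in injected and 281 and 903 in uninjected libraries. Bnip3 stood there at 112 and 118 in injected and 15.6 and 134 in uninjected libraries.

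**Figure D3:**
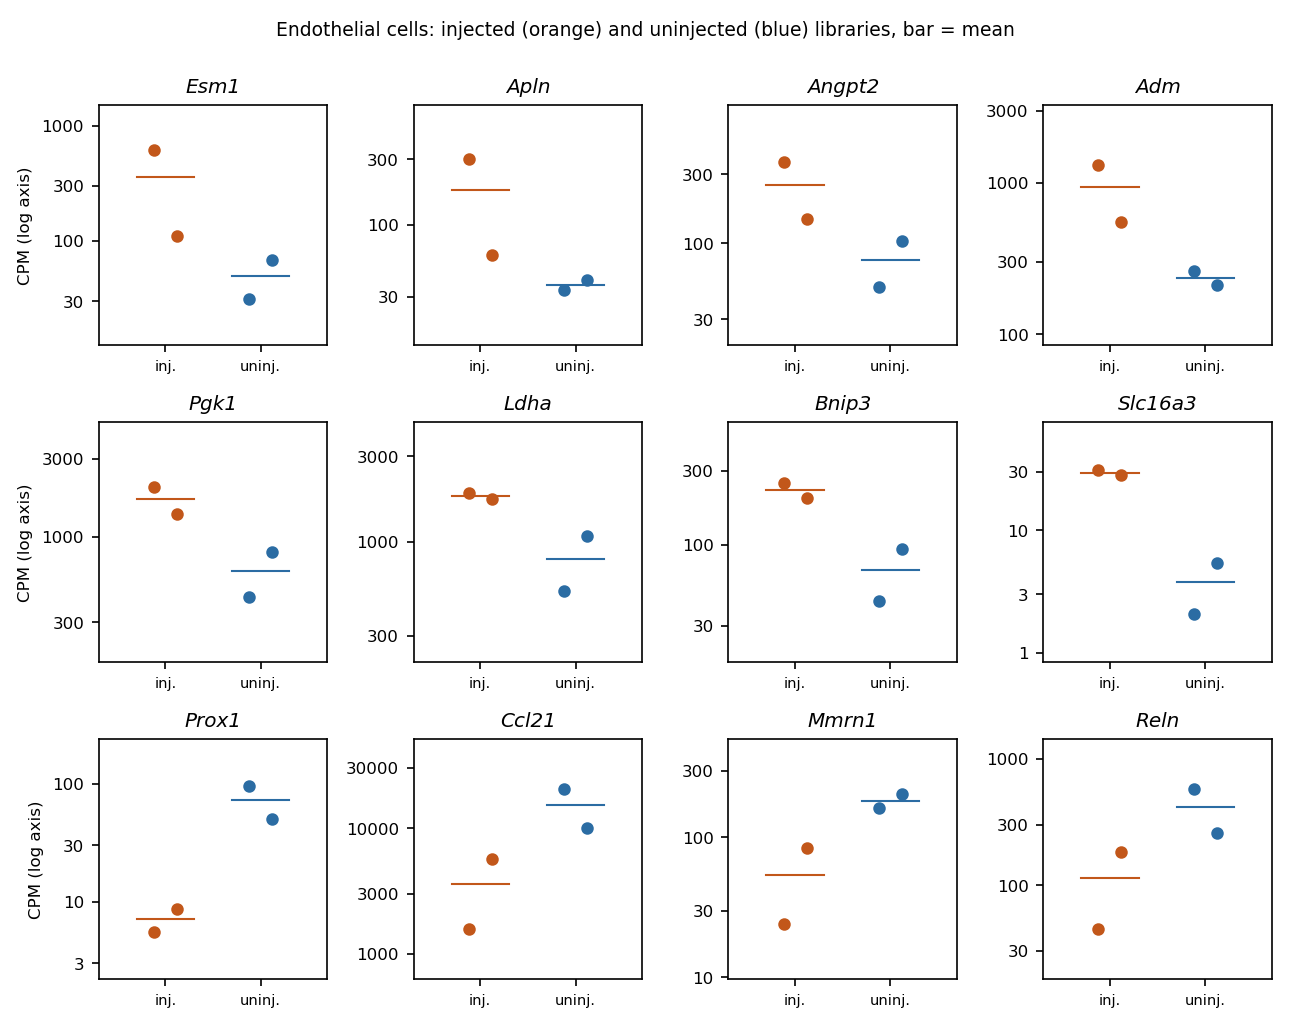
CPM (log axis) summed over the endothelial cells of each library, injected left in orange and uninjected right in blue, with a bar at each group's mean; each point is 1 library. Tip-cell genes (top row) are highest in injected 1, glycolytic genes (middle row) in both injected libraries, and lymphatic genes (bottom row) in both uninjected libraries.

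Promoters of this group are shown because its members were high in the same libraries. The core of the hypoxia response element was searched as ACGTG or GCGTG on both strands from 250 bases before to 50 bases after the start, in RefSeq sequences of the GRCr8 assembly. Of 23 genes of the list, 20 had a promoter there, and 12 of these held a match in any of their promoters (60.0%). Among all 33469 promoters, counted singly, 41.6% held a match. A gene with several promoters has more chances of a match, so these shares are not like for like. Counted by gene in the same way, the letters were held by 13 of 14 immediate early and heat shock genes (92.9%) and by 5 of 17 cytokine and chemokine genes (29.4%). A match is thus not particular to the glycolytic genes. The promoters of Ldha (chr1:106507842-106508141, + strand, 6 matches) and Bnip3 (chr1:203154913-203155212, - strand, 4 matches) read as follows, with matches in capitals and palindromic matches counted on each strand.
Ldha: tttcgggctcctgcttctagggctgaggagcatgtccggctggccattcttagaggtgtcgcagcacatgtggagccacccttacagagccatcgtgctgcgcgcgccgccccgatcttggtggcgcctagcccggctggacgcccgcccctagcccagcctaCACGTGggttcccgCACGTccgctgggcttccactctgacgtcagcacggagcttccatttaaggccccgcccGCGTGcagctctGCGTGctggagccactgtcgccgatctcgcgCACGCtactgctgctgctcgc
Bnip3: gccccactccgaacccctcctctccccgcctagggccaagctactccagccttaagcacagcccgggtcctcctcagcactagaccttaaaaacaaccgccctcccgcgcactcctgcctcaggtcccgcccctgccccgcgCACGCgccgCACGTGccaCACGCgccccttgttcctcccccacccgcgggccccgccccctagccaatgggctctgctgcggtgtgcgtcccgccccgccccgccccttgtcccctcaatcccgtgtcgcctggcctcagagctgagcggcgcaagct
A match describes these letters only and is no evidence of binding.

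Lymphatic genes had fewer transcripts in the injected libraries. Of 10 lymphatic genes, 8 were tested and all 8 had a negative log2 difference, with a median of -1.61. Both injected libraries lay below both uninjected libraries for 5 of them, and 4 had an unadjusted p under 0.05. Prox1, the transcription factor that keeps lymphatic identity, held 5.48 and 8.65 CPM in injected and 95.8 and 50.4 CPM in uninjected libraries, a log2 difference of -3.52 ± 0.50 (SE; edgeR adjusted p = 0.179). Ccl21, the chemokine that guides dendritic cells into lymphatics, held 1568 and 5645 CPM in injected and 20429 and 10062 CPM in uninjected libraries, a log2 difference of -2.08 ± 0.68 (edgeR adjusted p = 0.435). Mmrn1, a secreted multimerin, held 24.1 and 84.3 CPM in injected and 162 and 203 CPM in uninjected libraries. Reln, a large secreted matrix protein, held 44.6 and 184 CPM in injected and 577 and 258 CPM in uninjected libraries. Injected 1 was the lowest library for each of these genes. Leaving out each library in turn gave Ccl21 differences of -3.29 to -1.42. Without the cells of highest Scrublet score, which take 34 of the 35 lymphatic-like cells, Ccl21 stood at -0.0386 and Reln at -0.39. Lyve1, a hyaluronan receptor, overlapped between groups, with 86.8 and 177 CPM in injected and 171 and 307 CPM in uninjected libraries. Summed counts cannot separate a smaller share of lymphatic cells from lower levels in each. Within the lymphatic-like sub-cluster, whose cells number 8 and 5 in injected and 9 and 13 in uninjected libraries, Ccl21 stood at 75112 and 37192 unscaled CPM in injected and at 58645 and 68216 in uninjected libraries, with the groups overlapping. Prox1 there stood at 171 and 59.5 in injected and at 173 and 323 in uninjected libraries. Prox1 was also found in the sub-cluster led by keratinocyte genes, at 63.9 unscaled CPM in 9.09% of its 11 cells. Outside the sub-clusters led by keratinocyte or myeloid genes it stood at 7.81 and 9.75 in injected and at 65.9 and 55.3 in uninjected libraries.

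Venous genes were mostly lower in injected libraries, and some adhesion molecules spread widely between replicates. In the venous list, 7 of 8 tested genes had a negative difference and the median was -0.81. Nr2f2, the transcription factor of venous identity, held 19.2 and 34.6 CPM in injected and 91.6 and 102 CPM in uninjected libraries, a log2 difference of -1.98 ± 0.39 (SE; edgeR adjusted p = 0.299). Vwf, the clotting factor carrier stored in endothelial granules, held 142 and 195 CPM in injected and 258 and 345 CPM in uninjected libraries. Both genes kept the groups apart. Nr2f2 stood at 121 unscaled CPM in the venous-like and 134 in the lymphatic-like sub-cluster, against 19.0 in the tip-cell-like one. For venous genes too, summed counts cannot separate the shares of such cells from the levels in each cell. Selp held 101 and 199 CPM in injected and 110 and 1338 CPM in uninjected libraries, so its log2 difference of -2.30 ± 0.99 came from uninjected 2 and was 0.41 without that library. Icam1, a ligand of leukocyte integrins, held 309 and 597 CPM in injected and 614 and 1466 CPM in uninjected libraries. Jam3, a junctional adhesion molecule, held 57.2 and 51.9 CPM in injected and 14.6 and 24.5 CPM in uninjected libraries, above the uninjected libraries unlike most of its list.

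Cytokine and chemokine genes were mostly lower in injected wounds, with 5 of 17 tested genes higher, 12 lower and a median of -0.86. Both injected libraries were below both uninjected libraries for 7 genes and above for 1. Il6, a cytokine of the acute phase response, held 59.7 and 41.1 CPM in injected and 142 and 286 CPM in uninjected libraries, a log2 difference of -2.05 ± 0.42 (SE; edgeR adjusted p = 0.299). Outside the tip-cell-like sub-cluster and those led by other classes, its groups overlapped. Il6 there stood at 232 and 30.5 unscaled CPM in injected and at 134 and 305 in uninjected libraries. Up to 49.0% of its endothelial UMIs could have come from free RNA, a limit set from empty droplets and keratinocyte and neutrophil transcripts. Cxcl1, a neutrophil attractant, held 6423 and 6750 CPM in injected and 18781 and 8658 CPM in uninjected libraries. In the lymphatic-like cells of uninjected 1 it stood at 32315 unscaled CPM. Outside that sub-cluster Cxcl1 stood at 6250 and 6300 in injected and at 9376 and 8408 in uninjected libraries, a smaller difference in the same order. Cxcl11, an interferon-induced chemokine for T cells, held 23.8 and 58.4 CPM in injected and 121 and 144 CPM in uninjected libraries. Csf3, the growth factor of neutrophils, overlapped between groups, with 1329 and 1146 CPM in injected and 1014 and 1323 CPM in uninjected libraries and a log2 difference of 0.08 ± 0.34. Ccl2, a monocyte attractant, held 4735 and 10848 CPM in injected and 8443 and 9129 CPM in uninjected libraries and overlapped as well. Interferon-induced genes, with 5 of 17 tested genes higher and 12 lower, had a median of -0.83.

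Immediate early and heat shock genes were lower for 17 of 19 tested members, with a median of -0.35. Hspa1b, an inducible chaperone whose reads can be shared with a near-identical copy, held 427 and 733 CPM in injected and 1139 and 1130 CPM in uninjected libraries. Its log2 difference of -0.97 turned to 0.0354 without the cells of highest Scrublet score and was -0.0618 without the lymphatic-like sub-cluster. Hsph1, a co-chaperone of that family, held 95.6 and 117 CPM in injected and 233 and 221 CPM in uninjected libraries, a log2 difference of -1.11 ± 0.29 (SE; edgeR adjusted p = 0.371). The transcription factor Fosb held 240 and 376 CPM in injected and 612 and 755 CPM in uninjected libraries. Genes of vessel tone and shear response were lower for 14 of 15 members (median -0.49), Adm being the exception. Klf4, a factor induced by blood flow, held 90.6 and 190 CPM in injected and 400 and 426 CPM in uninjected libraries, and up to 30.7% of its UMIs could be free RNA.

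Genes of cell division leaned the other way. Of 23 tested members, 18 were higher and 5 lower, with a median log2 difference of 0.43. Both injected libraries exceeded both uninjected libraries for 13 of them and were below for 0. Cdk1, the kinase that starts mitosis, held 102 and 97.3 CPM in injected and 27.1 and 47.7 CPM in uninjected libraries, a log2 difference of 1.39 ± 0.36 (SE; edgeR adjusted p = 0.371). Mcm6, a subunit of the replication helicase, held 79.7 and 69.2 CPM in injected and 27.1 and 39.5 CPM in uninjected libraries.

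Antigen presentation, matrix and structural genes included single members whose groups did not overlap. The class I gene RT1-A2 held 783 and 1656 CPM in injected and 16.7 and 296 CPM in uninjected libraries, a log2 difference of 2.94 ± 1.04 (SE; edgeR adjusted p = 0.435). Genes of the rat RT1 complex are near-copies of each other, so reads may be split between them and this value is uncertain. It ranged from 2.03 to 6.19 with each library left out. B2m, the partner chain of all class I molecules, overlapped at 1870 and 3233 CPM in injected and 4651 and 2342 CPM in uninjected libraries. Vim, the intermediate filament of mesenchymal and endothelial cells, held 22739 and 18862 CPM in injected and 7816 and 10689 CPM in uninjected libraries, a log2 difference of 1.17 ± 0.40 (edgeR adjusted p = 0.435). S100a4, a calcium-binding protein of the same list, lay the other way, at 51.5 and 82.1 CPM in injected and 367 and 131 CPM in uninjected libraries. Col4a2, a chain of basement membrane collagen, held 272 and 145 CPM in injected and 102 and 117 CPM in uninjected libraries. Basement membrane genes as a list were close to the middle, with 10 of 15 higher and a median of 0.21.

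Lists tied to migrasomes, barrier function and vessel type had no called member either. Of 22 tested tetraspanins and integrins known from migrasomes, 8 were higher and 14 lower, with a median of -0.23. Cd9, a tetraspanin, held 1385 and 2060 CPM in injected and 1581 and 1624 CPM in uninjected libraries, and Cd63, another, held 1109 and 1100 CPM in injected and 1270 and 858 CPM in uninjected libraries. Junction genes had 6 of 18 higher (median -0.35), coagulation genes 6 of 16 (median -0.44), arterial genes 3 of 8 (median -0.51) and capillary genes 2 of 7 (median -0.77). Antigen presentation genes had 7 of 10 higher (median 0.41), NF-kB feedback genes 5 of 14 (median -0.22), BMP and TGF-beta genes 7 of 15 (median -0.12), leukocyte adhesion genes 3 of 9 (median -0.30) and genes of endothelial to mesenchymal transition 4 of 8 (median -0.11). The 31 endothelial genes outside the gate had 11 higher and 20 lower, with a median of -0.12.

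Outside these lists, genes were named for the smallest p in each direction. Those given here had groups that did not overlap, which a small p favours. P2ry6, a receptor for the nucleotide UDP, held 47.9 and 47.5 CPM in injected and 4.17 and 9.54 CPM in uninjected libraries. Ccn2, a matrix protein also called connective tissue growth factor, held 165 and 173 CPM in injected and 35.4 and 61.3 CPM in uninjected libraries. Nr5a2, a nuclear receptor, gave 337 and 14 UMIs in injected and 1 and 1 UMIs in uninjected libraries. Among genes of the opposite direction, Bcar3, an adaptor of integrin signalling, held 27.1 and 25.9 CPM in injected and 123 and 116 CPM in uninjected libraries, a log2 difference of -2.16 ± 0.31 (SE; edgeR adjusted p = 0.179). Rab21, a small GTPase of integrin traffic, held 41.9 and 71.3 CPM in injected and 281 and 243 CPM in uninjected libraries. A2m, the protease inhibitor alpha-2-macroglobulin, gave 2 and 0 UMIs in injected and 13 and 16 UMIs in uninjected libraries. Rgs5, best known from pericytes and one of the mural markers summed below, gave 2 and 0 UMIs in injected and 11 and 28 UMIs in uninjected libraries. It was highest in the unnamed sub-cluster led by Tpm2, at 45.8 unscaled CPM in only 3.70% of its 27 cells. The Rgs5 difference thus rested on very few cells.

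Markers of other classes were summed over each list in the same cells. Keratinocyte markers came to 526 and 1009 CPM in injected and 1922 and 674 CPM in uninjected libraries, mural markers to 349 and 6.48 CPM in injected and 35.4 and 112 CPM in uninjected libraries, and general leukocyte markers to 89.0 and 56.2 CPM in injected and 215 and 125 CPM in uninjected libraries. Neutrophil markers came to 42.4 and 38.9 CPM in injected and 131 and 42.2 CPM in uninjected libraries, with 1 of 9 (Cxcr2) at 0 UMIs, and macrophage and dendritic markers to 50.1 and 15.1 CPM in injected and 33.3 and 32.7 CPM in uninjected libraries, with 2 of 12 at 0 UMIs. T and NK cell markers came to 49.8 and 8.65 CPM in injected and 33.3 and 46.3 CPM in uninjected libraries, and fibroblast markers to 31.2 and 30.3 CPM in injected and 70.8 and 36.8 CPM in uninjected libraries. Mast cell markers came to 193 and 69.2 CPM in injected and 62.5 and 34.1 CPM in uninjected libraries, nearly all from Kit, which endothelial cells of the tip-cell-like sub-cluster also held, and red cell and platelet markers to 83.5 and 2.16 CPM in injected and 12.5 and 5.45 CPM in uninjected libraries. Dsp, a desmosome protein of keratinocytes, held 17.3 and 17.3 CPM in injected and 123 and 74.9 CPM in uninjected libraries, and all of it could be free RNA. Free RNA was at most 9.95% and 2.49% of endothelial UMIs in injected 1 and 2, against 5.27% and 3.20% in uninjected 1 and 2. Without cells that carried leukocyte or mural markers, the log2 difference was 2.94 for Esm1, 1.86 for Adm, -3.59 for Prox1 and -2.04 for Ccl21. Without the sub-clusters led by keratinocyte or myeloid genes it was 2.77 for Esm1, 1.91 for Adm, -3.01 for Prox1 and -2.13 for Ccl21.

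Whether the injection difference was that of the wound's stroma at large was tested against 2386 fibroblasts of the same libraries, as the difference between both log2 differences. Csf3, Cxcl1, Il6, Hspa1b and Hsph1 were higher in fibroblasts of both injected libraries, while in endothelial cells Csf3 overlapped and the others were lower. Of 12481 genes tested, 40 passed an adjusted p of 0.05 (0.32%; edgeR), 2 with the higher difference in endothelial cells (0.016%) and 38 with the lower (0.304%), and 1553 (12.4%) had an unadjusted p under 0.05. Among the 40 genes, both injected libraries were above both uninjected libraries in fibroblasts for 31, against 20.7% of all genes, and below them in endothelial cells for 35, against 18.0%, with 27 doing both. These counts come from the contrast that chose the genes. The count was 2 without injected 1, 107 without injected 2, 449 without uninjected 1 and 415 without uninjected 2. It was 204 with a stricter endothelial gate and 22 after thinning each cell to 1000 UMIs.

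Csf3 passed the threshold in every setting tried. In endothelial cells its groups overlapped, as given above, and in fibroblasts it held 244 and 305 CPM in injected and 19.2 and 25.2 CPM in uninjected libraries. The difference of differences was -3.51 ± 0.27 on the log2 scale (SE, n = 2 libraries each; edgeR adjusted p = 0.000499). Cxcl1 held 12075 and 9914 CPM in fibroblasts of injected and 5362 and 4727 CPM in fibroblasts of uninjected libraries, the reverse of its order in endothelial cells, with a difference of differences of -2.05 ± 0.27 (edgeR adjusted p = 0.0146). Il6 held 2690 and 1860 CPM in fibroblasts of injected and 1050 and 744 CPM in fibroblasts of uninjected libraries, again the reverse, with a difference of differences of -3.38 ± 0.44 (edgeR adjusted p = 0.0146). The endothelial order of Il6 was that of all endothelial cells summed. Its endothelial groups overlapped outside the tip-cell-like sub-cluster and those led by other classes, as given above. The endothelial difference of Cxcl1 was smaller outside the lymphatic-like sub-cluster, as also given above. The comparison with fibroblasts was not repeated without that sub-cluster. Cxcl3, a further neutrophil attractant, came to -3.91 ± 0.31 (edgeR adjusted p = 0.000499), but all of its endothelial UMIs could be free RNA, as could over 50% of those of 8 of the 40 genes. Without injected 1, Cxcl1 stood at -1.90 and Il6 at -3.42 and neither passed (edgeR adjusted p = 0.302 and 0.302).

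**Figure D4:**
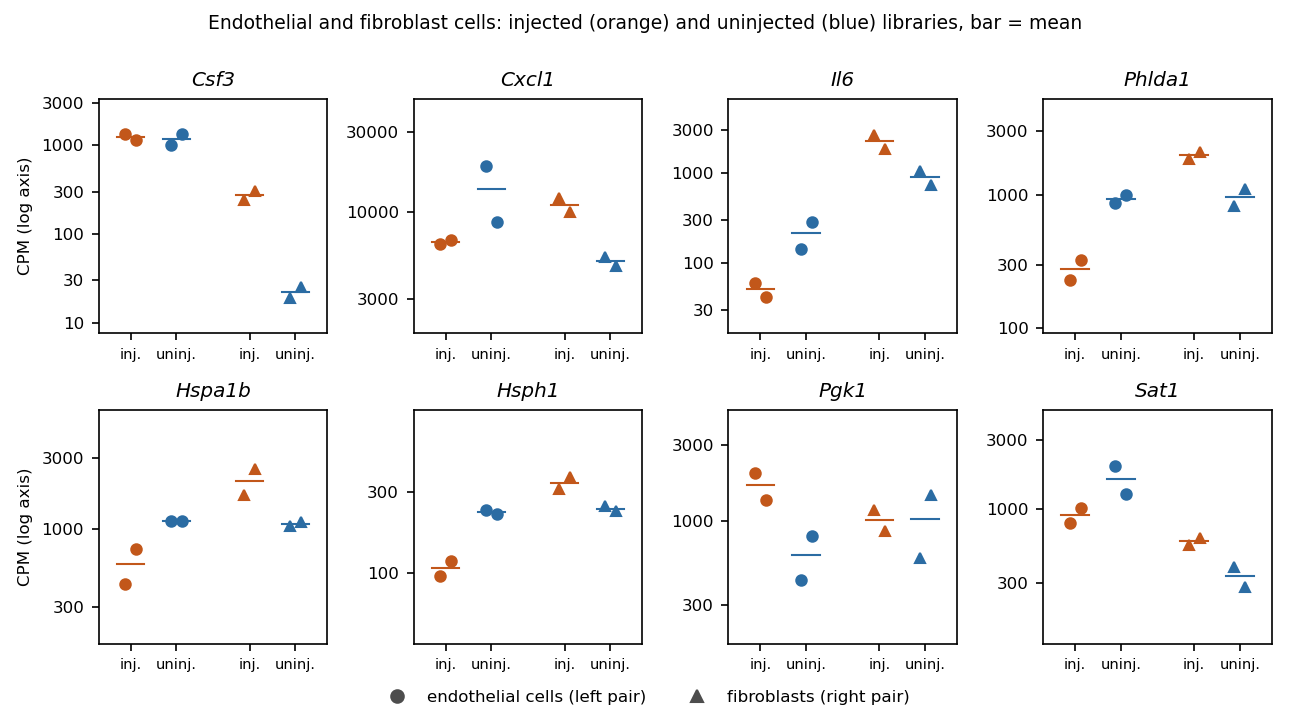
CPM (log axis) of 8 genes with a difference of differences past the threshold, in endothelial cells (circles, left pair) and fibroblasts (triangles, right pair), injected orange and uninjected blue, each point 1 library and bars at means. Csf3 overlaps in endothelial cells and higher in injected fibroblasts, Pgk1 is higher in injected endothelial cells, and the other genes are lower in injected endothelial cells and higher in injected fibroblasts.

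Of 20 immediate early and heat shock genes tested, 2 passed, Hspa1b and Hsph1, and of 22 cytokine and chemokine genes 4 passed. Hspa1b held 1682 and 2519 CPM in fibroblasts of injected and 1055 and 1119 CPM in fibroblasts of uninjected libraries, with a difference of differences of -1.92 ± 0.21 (edgeR adjusted p = 0.00789), though its endothelial difference turned without the cells of highest Scrublet score, as given above. Hsph1 held 313 and 366 CPM in fibroblasts of injected and 246 and 231 CPM in fibroblasts of uninjected libraries, with a difference of differences of -1.59 ± 0.26 (edgeR adjusted p = 0.0394). Phlda1, a gene induced by growth factors, held 231 and 322 CPM in endothelial cells of injected and 864 and 991 CPM in those of uninjected libraries. Its groups were closer outside the tip-cell-like sub-cluster and those led by other classes. Phlda1 there stood at 570 and 313 unscaled CPM in injected and at 714 and 1009 in uninjected libraries. In the venous-like sub-cluster it overlapped, at 885 and 695 in injected and 983 and 617 in uninjected libraries. In fibroblasts Phlda1 held 1865 and 2084 CPM in injected and 825 and 1106 CPM in uninjected libraries, and its difference of differences was -2.79 ± 0.23 (edgeR adjusted p = 0.000499). Up to 38.2% of its endothelial UMIs could be free RNA. Sat1, which breaks down polyamines, held 795 and 1001 CPM in endothelial cells of injected and 1972 and 1273 CPM in those of uninjected libraries. In fibroblasts Sat1 held 559 and 626 CPM in injected and 392 and 283 CPM in uninjected libraries (difference of differences -1.63 ± 0.22, edgeR adjusted p = 0.0154). Without injected 1, none of these genes passed, Phlda1 coming closest at -2.65 (edgeR adjusted p = 0.068), and Hsph1 also missed the threshold without injected 2 (edgeR adjusted p = 0.0733) and after thinning (edgeR adjusted p = 0.142). Prox1, at 1.27 to 5.98 CPM in fibroblasts, also passed, with a difference of differences of -4.20 ± 0.67 (edgeR adjusted p = 0.0381), which was -3.68 without injected 1 (edgeR adjusted p = 0.475).

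In the other direction stood Pgk1 and Ccl3, of which Ccl3 is named after its values were seen. Pgk1 held 1179 and 873 CPM in fibroblasts of injected and 586 and 1474 CPM in fibroblasts of uninjected libraries, where the groups overlapped. Its difference of differences was 1.41 ± 0.23 (edgeR adjusted p = 0.0426), and it lost the threshold without injected 1 (1.32), without injected 2 (1.52), without ribosomal and mitochondrial genes (1.38) and after thinning (0.80). Ccl3, a chemokine of myeloid cells, gave 387 and 37 UMIs in endothelial cells of injected and 3 and 3 UMIs in those of uninjected libraries, and all of it could be free RNA. Its difference of differences of 2.90 ± 0.50 (edgeR adjusted p = 0.0467) was 1.22 and no longer past the threshold without the sub-clusters led by keratinocyte or myeloid genes, and also missed it without injected 1 (2.57) and after thinning (2.45). Cdk1 just missed the threshold, with a difference of differences of 1.81 ± 0.32 (edgeR adjusted p = 0.0519). Without the sub-clusters led by keratinocyte or myeloid genes, that of Cdk1 was 1.35 (edgeR adjusted p = 0.110).

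Promoters of Cxcl1, Il6 and Hsph1 are shown because each gene lay in opposite orders in the summed endothelial cells and fibroblasts. The NF-kB motif, searched on both strands as GGG and TTTCC with any 2 bases between them, was held by 1.53% of all promoters counted singly. Counted by gene, with a match in any promoter, it was held by 5 of 17 cytokine and chemokine genes (29.4%). Among the 40 genes it was held by 3 of the 23 with a promoter (13.0%). The heat shock element, searched on both strands as 3 alternating GAA and TTC triplets with any 2 bases between neighbours, was held by 0.798% of all promoters counted singly. Counted by gene, it was held by 4 of 14 immediate early and heat shock genes (28.6%). The promoters of Cxcl1 (chr14:17479272-17479571, - strand), Il6 (chr4:5894526-5894825, - strand) and Hsph1 (chr12:10427118-10427417, + strand) read as follows, from RefSeq GRCr8, with matches in capitals.
Cxcl1: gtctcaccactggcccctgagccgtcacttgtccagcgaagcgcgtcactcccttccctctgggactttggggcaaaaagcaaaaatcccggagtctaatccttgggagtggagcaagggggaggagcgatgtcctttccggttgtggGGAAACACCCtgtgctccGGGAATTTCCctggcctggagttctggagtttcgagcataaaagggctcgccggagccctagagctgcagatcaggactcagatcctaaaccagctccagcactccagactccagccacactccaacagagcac
Il6: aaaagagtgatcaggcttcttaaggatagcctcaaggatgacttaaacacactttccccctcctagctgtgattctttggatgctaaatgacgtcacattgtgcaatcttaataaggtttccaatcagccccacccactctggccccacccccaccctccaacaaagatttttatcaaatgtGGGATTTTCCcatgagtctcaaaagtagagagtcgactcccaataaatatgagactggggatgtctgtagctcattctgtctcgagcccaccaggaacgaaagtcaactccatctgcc
Hsph1: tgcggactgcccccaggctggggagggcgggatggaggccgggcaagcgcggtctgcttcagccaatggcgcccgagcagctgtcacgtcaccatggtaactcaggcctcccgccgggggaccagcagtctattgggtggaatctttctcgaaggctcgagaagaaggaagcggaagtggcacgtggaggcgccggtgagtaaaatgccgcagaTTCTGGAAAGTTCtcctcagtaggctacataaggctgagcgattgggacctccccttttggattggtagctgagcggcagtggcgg
Cxcl1 held 2 matches, Il6 held 1 and Hsph1 held 1. They describe the letters in this window only.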

How the data were processed

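Single-cell RNA libraries of rat wound skin were deposited by the authors as UMI counts per gene and barcode, with empty droplets included. Per the file headers the matrices were written by Cell Ranger 7.2.0, a version that differs from the 5.0.1 in the submitters' processing notes. No genome build is given in the sources used here. Kept barcodes had at least 1000 UMIs, 250 genes and at most 20% mitochondrial UMIs, and doublets were scored with Scrublet but not removed. Sub-clusters came from scanpy 1.11.5 (2000 variable genes, 15 components, 15 neighbours, Leiden resolution 0.5). UMI counts were summed per library over endothelial cells or fibroblasts (collagen genes at or over 1%, Krt5 and Krt14 under 0.5%, not mural) and tested with edgeR 4.0.16 in R 4.3.3 (quasi-likelihood, TMM, filterByExpr, Benjamini-Hochberg over all genes tested, threshold 0.05). The comparison of both cell types was the class by group interaction with library as a term. The gate's genes were given no test.

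Cell choice, gene lists and tests were chosen with earlier results of these data known. The text draws its genes from up to 6 per list by mean level and 3 by smallest p, and outside the lists from the 8 of smallest p in each direction with a gene symbol and at most 50% possible free RNA. The limit on free RNA took all Krt17, S100a8 or S100a9 UMIs of endothelial cells as free and scaled them by empty droplets (barcode ranks 45000 to 90000). Tested on simulated data, the endothelial test recovered 144 of 200 genes changed by 2 on the log2 scale (6663 genes) and 198 of 200 changed by 3 (6661 genes), and the interaction test 52 and 179 of 200 (7012 genes). The simulated endothelial counts varied by the fitted trend of spread with level alone. They had no gene-specific spread and no outlying library, so these rates do not carry over to the real libraries. Alternatives were other scaling (DESeq2 1.42.0 size factors and test), no filter on low counts, a stricter gate (6 UMIs, 4 genes), cells thinned to 1000 UMIs, cell sets left out, a replicate block and each library left out.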

Additional observations from a re-analysis of the deposited data

Results flagged for a closer look

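The results below were singled out because the injection difference in endothelial cells differed from that in fibroblasts of the same libraries, by a test of that difference itself (edgeR, adjusted p under 0.05). Each value is a difference of log2 differences, endothelial minus fibroblast. Pgk1 stood at 1.41 and Ccl3 at 2.90. The cytokine and chemokine genes stood at -3.51 (Csf3), -2.05 (Cxcl1), -3.91 (Cxcl3) and -3.38 (Il6). Phlda1 stood at -2.79, Hspa1b at -1.92, Hsph1 at -1.59 and Sat1 at -1.63. Prox1 stood at -4.20, Dsp at -2.84 and LOC299282 at -4.04; LOC299282 was lower in injected libraries in both cell types and Dsp may be free RNA throughout in endothelial cells.

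Genes not described above were Meis2, a homeodomain transcription factor, and Snx18, a sorting nexin. Meis2 held 2.19 and 4.32 CPM in endothelial cells of injected and 16.7 and 20.4 CPM in those of uninjected libraries. In fibroblasts Meis2 held 190 and 217 CPM in injected and 109 and 76.3 CPM in uninjected libraries, a difference of differences of -3.97 ± 0.53 (SE, edgeR adjusted p = 0.0149). Snx18 held 61.9 and 80.0 CPM in endothelial cells of injected and 146 and 234 CPM in those of uninjected libraries. In fibroblasts Snx18 held 289 and 200 CPM in injected and 101 and 93.9 CPM in uninjected libraries, a difference of differences of -2.77 ± 0.38 (edgeR adjusted p = 0.0154). For both genes the cell types lay in opposite orders with no overlap. Bcar3 held 16.0 and 15.8 CPM in fibroblasts of injected and 17.6 and 12.1 CPM in those of uninjected libraries, so its -2.27 ± 0.39 (edgeR adjusted p = 0.0467) came from the endothelial cells. Of all these genes, only Csf3 and Cxcl3 passed without injected 1.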

How the results depend on the processing

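With 2 libraries a group and 29 to 157 endothelial cells a library, counts of genes past the threshold moved widely. Where a library was left out, the lone library of its group was assumed to vary like the others. Leaving out each library gave 0 to 590 endothelial calls and 2 to 449 in the comparison with fibroblasts, and a difference in endothelial share of -0.0763 to 1.05 percentage points, negative without injected 1. The endothelial count of 1 became 348 with no filter on low counts, 33 by DESeq2, 0 after thinning (876 genes tested) and 0 with a replicate block; the other settings gave 1. The count of 40 became 541 with no filter, 204 with the stricter gate, 22 after thinning, 84 without ribosomal and mitochondrial genes, 124 without sub-clusters led by other classes, 51 with DESeq2's size factors and 48 with the replicate block. The labels do not say whether the replicate numbers pair libraries. Deviations of same-numbered libraries correlated at -0.01 over 7012 genes, which does not settle whether they share an animal or batch. The block left the share difference at 0.485. In the comparison with fibroblasts the block ended the calls of Hsph1, Ccl3 and Bcar3 (edgeR adjusted p = 0.0549, 0.0563 and 0.0668). In the endothelial comparison LOC299282 missed the threshold with the block (edgeR adjusted p = 0.053) and after thinning (edgeR adjusted p = 0.134).

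Of 713 values of single endothelial genes under settings that keep all libraries, 646 stayed on the same side, 2 weakened, 56 passed only there and 9 changed sign; with a library left out, of 278 values 191, 1, 79 and 7 did. For the comparison with fibroblasts the numbers were 104, 12, 8 and 1 of 125, and 50, 17, 5 and 0 of 72. Sign changes, on the log2 scale, were Lyve1 at 0.76 without the highest Scrublet scores and 1.45 without the lymphatic-like sub-cluster, Hspa1b at 0.0354 without the highest Scrublet scores, Ccl2 at 0.27 after thinning, and Csf3 at -0.0568 without sub-clusters led by other classes. Plvap stood at -0.19 after thinning, -0.19 without the highest Scrublet scores, -0.00351 without sub-clusters led by other classes and -0.0501 without the lymphatic-like one. Bcar3's difference from fibroblasts was 0.57 after thinning. With each library left out, Flt4 ranged over -0.99 to 0.27, Selp over -3.22 to 0.41, Csf3 over -0.10 to 0.31, Ccl2 over -0.91 to 0.32, B2m over -0.91 to 0.12 and Plvap over -0.34 to 0.49. The cause was not tested.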
